A study of Mus musculus with 43 samples.

Results

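Transcripts of 40 skeletal muscle genes were followed in the inguinal fat of mice, a white depot under the skin of the groin. The genes encode the contractile apparatus of striated muscle, its calcium release machinery and its energy enzymes, and they were taken as a list of known muscle genes, not by their values. Of the 40 genes, 36 had a row among the 22622 genes of each table; Mylpf, Tnni1, Tnnc2 and Pvalb were not analysed here. RNA was measured in 43 libraries of 9 groups, arranged in 5 tables of 1 comparison each, in a study of beige fat cells around weaning and in the cold.

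The first table held wild-type C57BL/6J mice at postnatal day 28 (P28) kept at 30 C (n = 4) against the same strain and age at 22 C (n = 4). The second set P28 mice at 22 C carrying floxed TrkA and Th-cre (n = 4) against the same 4 wild-type libraries at 22 C. Th-cre is driven by the tyrosine hydroxylase gene, which marks sympathetic neurons, and its comparison group carried neither the floxed allele nor Cre. The third held P25 mice at 22 C with floxed Bcl6 and Prx1-cre (n = 8) against floxed Bcl6 mice without Cre (n = 7). Prx1-cre is driven by an enhancer of limb mesenchyme. The fourth held 9-week-old mice of both Bcl6 genotypes at 4 C (n = 4 each), and the fifth wild-type C57BL/6J mice at 9 weeks and 4 C (n = 4) against 22 C (n = 4). Nothing in the labels states whether replicates came from different mice, so the p-values cover only the spread among libraries, which may be technical.

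Skeletal muscle contracts through sarcomeres, in which thick filaments of myosin slide along thin filaments of actin, tropomyosin and troponin. Fast-twitch and slow-twitch fibres carry different myosin heavy chains and different troponin subunits, and calcium released from the sarcoplasmic reticulum switches contraction on. The inguinal depot lies between the skin and the muscles of the groin and thigh. White fat cells do not build sarcomeres, but desmin, Tpm3 and several Z-disc and glycolytic genes are also made outside skeletal muscle.

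The values are normalized counts on the scale of each table, so levels are compared only within a table. Estimated depth ran between 3503000 and 6432000 reads per library at P28, between 4995000 and 15785000 at P25, between 16868000 and 30729000 in the adult Bcl6 table and between 6268000 and 8861000 in the adult wild-type table. The depth estimates of both adult tables are rough. In the libraries labelled Prx1-cre, total Bcl6 was higher than in floxed libraries without Cre, at 1517 to 3329 against 454 to 1395 at P25 and at 9624 to 14493 against 1607 to 2529 at 9 weeks; gene totals do not show which exons were read. All 7 measured adipocyte genes were present in each table, with summed levels of 31999 to 42835 in TrkA-flox Th-cre libraries and 29100 to 37536 in wild-type libraries at P28.

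Promoters of 4 members are shown, those of Acta1, Ckm and Myh4, which carried much of the muscle signal, and that of Myh7, the slow-fibre gene that stayed low in most libraries. The windows are the 250 bases before the annotated start in RefSeq (build GRCm38.p6), written 5′ to 3′ on the strand of the gene. Capitals mark E-boxes (CANNTG, bound by myogenic factors), the CArG box of serum response factor and TATAAA, each on either strand; no 2 matches overlap. Acta1, skeletal actin, lies at chr8:123894776-123895025 on the minus strand; Ckm, muscle creatine kinase, at chr7:19410844-19411093 on the plus strand; Myh4, the fastest myosin heavy chain, at chr11:67237562-67237811 on the plus strand; Myh7, the slow myosin heavy chain, at chr14:54994627-54994876 on the minus strand.
Acta1: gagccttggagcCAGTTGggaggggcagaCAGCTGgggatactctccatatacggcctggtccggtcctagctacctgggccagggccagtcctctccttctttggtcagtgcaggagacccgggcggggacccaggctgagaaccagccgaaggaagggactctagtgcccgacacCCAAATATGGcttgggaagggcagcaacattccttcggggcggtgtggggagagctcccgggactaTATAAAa
Ckm: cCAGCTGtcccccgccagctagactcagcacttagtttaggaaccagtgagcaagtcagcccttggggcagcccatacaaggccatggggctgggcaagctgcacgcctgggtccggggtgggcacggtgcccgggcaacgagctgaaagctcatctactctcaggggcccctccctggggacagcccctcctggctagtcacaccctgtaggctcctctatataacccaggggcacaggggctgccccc
Myh4: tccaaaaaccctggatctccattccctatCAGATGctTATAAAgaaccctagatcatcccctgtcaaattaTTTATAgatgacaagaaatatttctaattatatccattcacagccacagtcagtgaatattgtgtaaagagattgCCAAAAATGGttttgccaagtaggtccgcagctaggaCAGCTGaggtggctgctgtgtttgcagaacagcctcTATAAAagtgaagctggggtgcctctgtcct
Myh7: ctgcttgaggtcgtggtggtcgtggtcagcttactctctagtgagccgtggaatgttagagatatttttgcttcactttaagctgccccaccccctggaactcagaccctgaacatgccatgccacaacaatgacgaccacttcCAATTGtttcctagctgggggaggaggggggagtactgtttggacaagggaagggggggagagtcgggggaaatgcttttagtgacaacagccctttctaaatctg

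Promoters were found for 26 of the 36 members, in 32 entries. An E-box stood in 27 of the 32, against 66.2% of all 32851 promoters of the same length. TATAAA stood in 7, against 12.4% of all promoters, and the CArG box in 5, against 1.47%. The MEF2 motif stood in 2, against 0.508%. Acta1 and Myh4 each held 2 E-boxes and 1 CArG box, whereas Ckm and Myh7 held 1 E-box and no CArG box in these windows. A second annotated entry of Myh7, at chr14:54994550-54994799 and not shown, held 2 E-boxes and no CArG box. A match describes the letters of the window and does not show binding.

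Muscle transcripts were present in all 43 libraries, at very unequal levels. Summed over the 36 members, they made up 0.182, 0.149, 0.0571 and 0.442% of all normalized counts in replicates 1 to 4 at 30 C, against 0.0636, 0.0473, 0.0688 and 0.0516% at 22 C. Replicate 3 at 30 C lay inside the range at 22 C and the other 3 above it. In bulk tissue, more muscle cells and more muscle RNA per cell cannot be told apart. TrkA-flox Th-cre libraries held 0.198, 0.0646, 0.0629 and 0.0951%, against the same wild-type libraries at 0.0638, 0.0474, 0.0689 and 0.0518% on the scale of that table. Replicates 1 and 4 lay above the wild-type range and replicates 2 and 3 within it.

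At P25 the libraries labelled Prx1-cre ranged over 0.0353% (lowest), 0.0984% (median) and 0.959% (highest), against 0.0928, 0.155 and 0.439% in floxed libraries. The highest value, in the library with the column code F2, exceeded the next one, 0.394% in M1, and the 3 lowest libraries of the table, F4, M3 and F1, were all labelled Prx1-cre. At 4 C, adult libraries labelled Prx1-cre held 0.0466, 0.0288, 0.0254 and 0.0397%, against 0.0563, 0.145, 2.41 and 0.0419% in floxed libraries. Replicate 3 of the floxed group thus supplied 90.9% of its group's sum. In adult wild-type mice the share was 0.516, 0.0177, 0.0437 and 0.222% at 4 C, against 0.0274, 0.025, 0.858 and 0.374% at 22 C. Each of these adult wild-type groups had libraries near 0.02% and libraries above 0.2%, so the groups overlapped throughout.

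The highest library of a table held 9.36 times the share of the lowest in the P28 temperature table, 4.18 times in the TrkA table, 27.2 times at P25, 94.9 times in the adult Bcl6 table and 48.4 times in adult wild-type mice. Much of the floor was Tpm3, a tropomyosin of slow fibres that many other cells make. Without Tpm3 the same folds were 23.3, 9.65, 113, 293 and 101. Group means of the share were 0.208% ± 0.165 at 30 C and 0.0578% ± 0.0101 at 22 C (SD, n = 4 each), a log2 ratio of 1.85. They were 0.105% ± 0.0636 in TrkA-flox Th-cre and 0.058% ± 0.0101 in wild-type libraries (n = 4 each), a log2 ratio of 0.86. At P25 they were 0.223% ± 0.320 in 8 Prx1-cre and 0.194% ± 0.118 in 7 floxed libraries, a log2 ratio of 0.20. In the adult tables they were 0.0351% ± 0.0098 in libraries labelled Prx1-cre and 0.664% ± 1.17 in floxed libraries, a log2 ratio of -4.24, and 0.200% ± 0.229 at 4 C and 0.321% ± 0.394 at 22 C, a log2 ratio of -0.68 (n = 4 each). Without 30 C replicate 4 the log2 ratio was 1.16, and without Th-cre replicate 1 it was 0.36. In the P25 table it was -0.72 without the Prx1-cre library F2 and 0.54 without the floxed library M2, so 1 library set its sign. In the adult Bcl6 table it was -1.21 without floxed replicate 3. In adult wild-type mice it was -1.77 without 4 C replicate 1 and 0.49 without 22 C replicate 3. The SD exceeded the mean in the P25 Prx1-cre group, in the adult floxed group and in both adult wild-type groups.

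**Figure D1:**
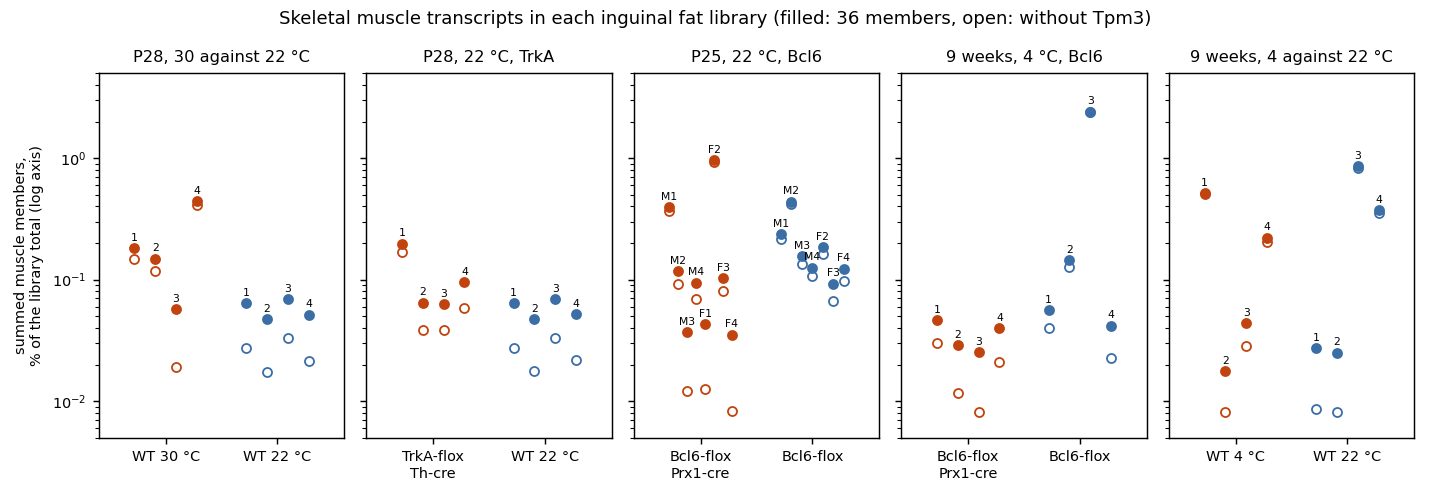
Summed muscle members in percent of all normalized counts of a library, on a log axis, for each comparison; filled points are all 36 members and open points leave out Tpm3, with the replicate number or column code above each point. Single libraries, such as replicate 3 of the adult floxed group at 2.41%, stand far above the others of their group.

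By role, the thin-filament and fast-fibre genes dominated. Set against the length of the longest coding transcript, in the library with the most muscle (adult floxed, 4 C, replicate 3), skeletal actin Acta1 had the highest level at 71014 per kb. Fast troponin T Tnnt3 followed at 67771 per kb, fast troponin I Tnni2 at 34794 per kb, Myh4 at 25819 per kb and Ckm at 25297 per kb. Actn3, the alpha-actinin of fast fibres, stood at 14827 per kb. The giant spring protein gene Ttn had 43398 normalized counts but 406 per kb. These orders hold per length only, in 1 library with no replicate.

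The slow-fibre genes other than Tpm3 were low both in that library and in the one with the least muscle in the same table, replicate 3 of the libraries labelled Prx1-cre. Myh7 had 6.83 normalized counts in Prx1-cre replicate 3, against 9.89 in floxed replicate 3. Slow troponin T Tnnt1 had 9.81 against 14.2, and Tnnc1, the troponin C of slow and cardiac muscle, 15.9 against 23.7. The slow regulatory light chain Myl2 had 1.22 against 0.968, and the slow essential light chain Myl3 had 6.17 against 33.8, the widest difference among these slow genes. In the same pair of libraries Acta1 had 36.5 against 102687, and Myh4 had 20.7 against 155327.

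Members without a fibre assignment split in the same way. The Z-disc and sarcomere genes Tcap, Myoz1, Myot and Xirp2 had 4.92, 4.97, 0 and 0 in Prx1-cre replicate 3, against 7153, 8452, 6333 and 6613 in floxed replicate 3. Desmin (Des), the intermediate filament of all muscle types, had 694 against 19932, Ldb3, a Z-disc PDZ protein, 275 against 3044, and Eno3, the muscle enolase, 549 against 10327. Des, Ldb3, Eno3 and Tpm3 were thus well above 0 in a library with few other muscle transcripts. Actn2 was listed at 0 in all 43 libraries and Sln reached at most 10.1. Myl1, an essential light chain of fast fibres, reached at most 15.6, and stood at 12.3 in floxed replicate 3, where Actn3 stood at 42805.

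**Figure D2:**
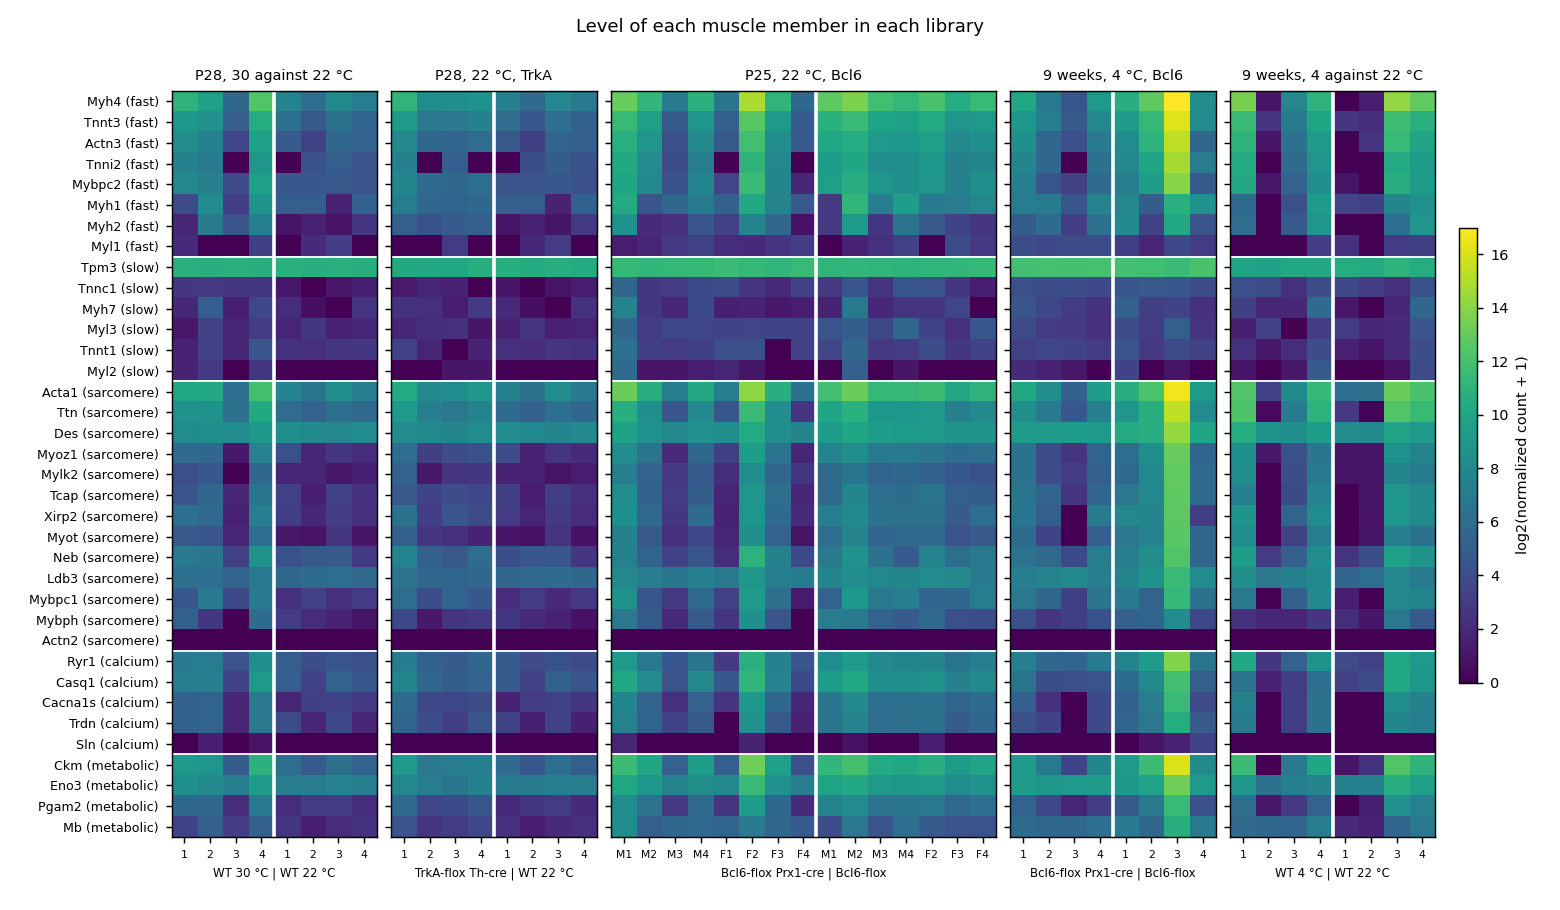
Level of each member in each library as log2(normalized count + 1), with members in rows by role and libraries in columns, the 2 groups of a comparison parted by a white line. Most fast, sarcomere, calcium and metabolic members brighten and darken together from library to library, while Tpm3 is bright in every library and Actn2, Sln, Myl1 and most slow genes are dark.

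Most members tested in all tables moved together within groups. With group means removed, the median over the 5 tables of Pearson r between a member's log2 level and the log2 member sum was 0.97 for Eno3, 0.96 for Acta1 and Ttn and 0.94 for Myh4. It was 0.56 for Myh1, a fast myosin of an intermediate fibre type, and -0.16 for Tpm3. In the TrkA table alone, r was 0.22 for Myh1, 0.31 for Tpm3, 0.39 for Des, 0.46 for Mybpc1 and 0.48 for Tnni2. There the other members ran from 0.816 for Neb to 0.971 for Ttn. The points are libraries that share scaling, and each member is part of the sum, so these values are a description.

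Myh4 was the most abundant of the 4 measured myosin heavy chains in most libraries. It made up 99.1, 63.9, 63.3 and 90.3% of their sum at 30 C, against 83.3, 64.5, 98.9 and 73.8% at 22 C. In TrkA-flox Th-cre libraries it made up 92.7, 81.3, 81.4 and 82.0%, against 82.0, 62.3, 98.7 and 71.8% in wild-type libraries on that table's scale. The ranges overlapped in both tables. At P25 its share ran over 63.2, 85.8 and 98.7% (lowest, median, highest) in libraries labelled Prx1-cre and 75.1, 92.1 and 99.8% without.

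The Myh4 share was lower in several adult libraries. In the adult Bcl6 table, libraries labelled Prx1-cre had Myh4 shares of 85.8, 36.3, 36.2 and 66.3%, against 73.6, 99.3, 98.1 and 44.4% in floxed libraries. Myh1 led in Prx1-cre replicates 2 and 3, at 40.9 and 39.1%, and in floxed replicate 4, at 52.1%. In wild-type mice the Myh4 share was 98.9, 30.6, 83.5 and 64.6% at 4 C, against 0, 16.8, 98.5 and 88.6% at 22 C. The 3 low values belong to libraries whose 4 myosins summed to 3.49, 12.1 and 9.93 normalized counts, so those shares rest on a handful of reads. Myosin genes are alike in sequence: 30.4% of the 31-base words of Myh4 and 39.7% of those of Myh1 occur in another of these myosins, and reads could be split between them.

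Slow myosin was seen in a few libraries. Myh7 reached 186 in the P25 Prx1-cre library M1 and 115 in the floxed library M2, where Myl2 reached 59.3 and 34.6. In adult wild-type mice it was 8.52, 2.42, 2.75 and 61.6 at 4 C, against 1.17, 0, 2.52 and 47.0 at 22 C. The library with 4 C replicate number 4 and that with 22 C replicate number 4 also had the most Myl2, at 28.8 and 13.8. Replicate 3 at 22 C held more muscle in all, 0.858% against 0.374% in replicate 4, and less Myh7.

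**Figure D3:**
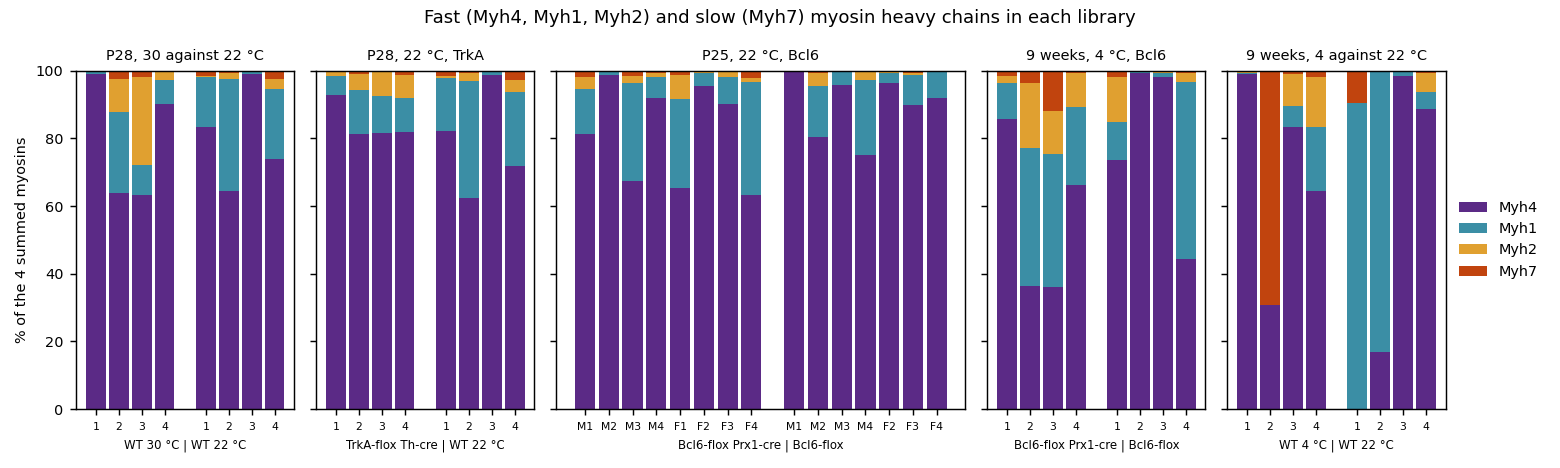
Myh4, Myh1, Myh2 and Myh7 in percent of their sum in each library, stacked, with the groups of a comparison parted by a gap. Myh4 fills most of the bar in nearly all libraries with much muscle, and Myh7 is visible mainly in libraries with few myosin reads.

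The log2 ratio of the summed fast to the summed slow members varied with the amount of muscle, and Tpm3 made up most of the slow sum. It was 0.95, 0.37, -3.72 and 2.43 at 30 C, against -2.40, -3.12, -1.93 and -2.40 at 22 C, a difference of mean log2 ratios of 2.47. In TrkA-flox Th-cre libraries it was 1.5, -1.04, -0.84 and -0.96, against -2.38, -3.08, -1.92 and -2.36 in wild-type libraries, a difference of 2.10 with no overlap. That separation rested on Tpm3 in the slow sum: with Tpm3 left out, Th-cre replicate 2 lay below wild-type replicate 3, so the groups overlapped. With Tpm3, the ratio was 1.93 lower in libraries labelled Prx1-cre than in floxed libraries at P25 and 4.14 lower in the adult Bcl6 table. In adult wild-type mice it was 4.31, -6.70, -0.95 and 2.11 at 4 C, against -6.17, -6.21, 3.85 and 2.96 at 22 C, a difference of 1.09. Without Tpm3 the ratio was 7.84, 5.07, 3.47 and 7.47 at 30 C, against 4.80, 4.00, 5.58 and 4.30 at 22 C, so fast members exceeded the other slow members in each of these libraries.

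The first comparison set housing at 30 C against 22 C at P28. Every tested muscle member had a higher mean log2 level at 30 C, yet none passed the test. Acta1 had 1194, 1211, 70.8 and 4035 normalized counts at 30 C, against 196, 95.2, 345 and 143 at 22 C. Replicate 3 at 30 C lay below all of the libraries at 22 C and the other 3 above them. Ckm, which buffers ATP in muscle, had 626, 468, 31.5 and 1868 at 30 C, against 69.6, 26.7, 78.0 and 39.3 at 22 C, with the same replicate inside the lower range. Mybpc1, a myosin-binding protein of the thick filament on chromosome 10 (88518279 to 88605229, mm10), had 24.2, 135, 12.4 and 134 at 30 C, against 4.24, 8.65, 3.95 and 7.22 at 22 C, with no overlap.

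With limma on log2(value + 1), 0 of the 19 members tested were called at an adjusted p of 0.05, where 4.45% of all 12283 tested genes were called. The smallest adjusted p was that of Mybpc1, at 0.0664 with a log2 fold change of 2.89 ± 0.748 (SE). At an unadjusted p of 0.05, 7 of the 19 members passed, against 2386 of all tested genes. The median log2 fold change was 2.27 over the tested members and 0.01 over all tested genes. Members pass the filter only if some libraries hold them, so neither the count nor the median speaks for all 36. Of the 36, 3 did not overlap between the groups, against 7.61% of all gene rows. Mybpc1 reached the filter value of 10 at 30 C alone.

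The call turned on a single library, the one with the least muscle at 30 C. Leaving it out removes the low values of that group and lets the filter ask for fewer libraries. The calls that follow carry that choice. Without 30 C replicate 3, limma called 18 of 26 tested members, all higher at 30 C, where 2.55% of the 12436 tested genes were called. The 18 comprised Acta1, Actn3, Cacna1s, Casq1, Ckm, Eno3, Mybpc1, Mybpc2, Myh4, Mylk2, Myot, Myoz1, Neb, Pgam2, Ryr1, Tnnt3, Ttn and Xirp2. The median log2 fold change over the 26 was then 3.33. Of the 26, 8 reached the filter value at 30 C alone, 6 of them among the calls, so the count favours genes high at 30 C. Of the 18 that reached it in both groups, 12 were called.

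The second comparison set TrkA-flox Th-cre mice against wild-type mice. Of the 21 muscle members tested, 19 had a higher and 2 a lower mean log2 level in TrkA-flox Th-cre libraries, and 4 passed, all upward, where 2.66% of 11899 genes were called in either direction and 1.34% upward. Myh2, a fast myosin of oxidative fibres (chromosome 11, 67171027 to 67197517), had 34.1, 18.2, 28.2 and 34.6 in TrkA-flox Th-cre libraries, against 1.04, 2.19, 0.973 and 6.28 in wild-type libraries. Every TrkA-flox Th-cre library lay above every wild-type library. Its log2 fold change was 3.22 ± 0.489 (SE; limma adjusted p = 0.0118).

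Mybpc1 had 66.0, 16.3, 44.2 and 24.9 in TrkA-flox Th-cre libraries, against 3.55, 7.20, 3.33 and 6.03 in wild-type libraries (log2 fold change 2.56 ± 0.453, limma adjusted p = 0.0211). Mybpc2, its fast-fibre paralogue on chromosome 7 (44501699 to 44524715), had 220, 61.8, 49.4 and 70.3, against 20.8, 21.1, 23.4 and 17.3 in wild-type libraries (1.96 ± 0.400, limma adjusted p = 0.0338). Ttn on chromosome 2 (76703980 to 76982557) had 555, 160, 106 and 200, against 62.8, 38.5, 73.4 and 53.3 in wild-type libraries (1.89 ± 0.427, limma adjusted p = 0.0475). In none of these genes did the groups overlap, and replicate 1 was the highest mutant library in all but Myh2. Of the 21 tested, 4 reached the filter value of 10 in TrkA-flox Th-cre libraries alone, namely Myh2, Mybpc1, Cacna1s and Pgam2. They entered the test through the group in which they were high, and the calls of Myh2 and Mybpc1 carry that selection. Of the 17 that reached it in both groups, 2 were called, Mybpc2 and Ttn.

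At an unadjusted p of 0.05, 16 of the 21 tested members passed, against 2280 of all tested genes, and the median log2 fold change was 1.71, against -0.01 over all tested genes. In all, 15 of the 36 members did not overlap between the groups, against 6.86% of all gene rows. Without Th-cre replicate 1, limma called 1 of 21 members, Mybpc2, where 0.781% of 12168 genes were called, and the median was 1.29. With the log2 member sum as a covariate, a choice made after seeing the data, none of the 4 was called by limma, with adjusted p of 0.0894 for Myh2, 0.140 for Mybpc1, 0.0894 for Mybpc2 and 0.0825 for Ttn. In that order their log2 fold changes were then 3.14, 2.15, 1.13 and 0.949, against 3.22, 2.56, 1.96 and 1.89 without the covariate. The covariate holds these genes within it, and its mean differed between the groups. Markers of mammary epithelium summed to 53.0 to 1806 in TrkA-flox Th-cre libraries, against 63.4 to 6387 in wild-type libraries, and the median log2 fold change of the 4 tested was -2.22; their part in the result was not tested. Both P28 comparisons share the 4 wild-type libraries at 22 C. Their values are therefore not independent. Ckm had a log2 fold change of 2.87 ± 1.05 for 30 C and 2.14 ± 0.502 for TrkA-flox Th-cre.

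At P25 no muscle member passed the test for Prx1-cre. Acta1 ranged over 81.5, 1448 and 17312 (lowest, median, highest) in libraries labelled Prx1-cre and 1244, 2584 and 9466 without. Tnni2 ranged over 0, 189 and 2129 in libraries labelled Prx1-cre and 176, 345 and 1041 without. The Prx1-cre group held the highest and the 3 lowest libraries for Acta1, so its spread enclosed that of the floxed group. limma called 0 of 29 tested members, where 3.53% of 12738 genes were called. At an unadjusted p of 0.05, 1 member passed, Tpm3, against 1910 of all tested genes. Its log2 fold change was 0.17 ± 0.0728 with an adjusted p of 0.272.

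The direction at P25 depended on the summary. Of the 29 tested members, 27 had a negative log2 fold change, with a median of -1.39 against 0.00 over all tested genes, whereas the mean share of the summed members was slightly higher in libraries labelled Prx1-cre. Oxygen-storing myoglobin Mb went the other way from most members, at 0.97 ± 0.511, with 29.0, 51.7 and 301 in libraries labelled Prx1-cre and 15.4, 20.9 and 113 without.

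At 9 weeks and 4 C the same genotypes differed by large folds that no member carried past the threshold. Acta1 had 1121, 319, 36.5 and 732 in libraries labelled Prx1-cre, against 1514, 4633, 102687 and 592 without. Trdn, which anchors calsequestrin to the calcium release channel, had 17.7, 9.92, 0 and 12.5, against 45.3, 105, 1486 and 28.3 in floxed libraries, and was among the 3 of 36 members without overlap, against 14.1% of all gene rows. Its log2 fold change of -4.06 ± 1.34 had an adjusted p of 0.0783, the smallest of the members. limma called 0 of the 30 tested members, where 14.5% of 13496 genes were called. At an unadjusted p of 0.05, 14 members passed, against 4030 of all tested genes. The median was -3.24 over the tested members and -0.02 over all tested genes.

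Most of that distance lay in floxed replicate 3. Without it the median over 31 tested members was -1.58, and limma called 2 of them, where 26.0% of 13622 genes were called. Desmin was lower in libraries labelled Prx1-cre, at 650, 572, 694 and 616 against 1320, 1516 and 1014 in the other 3 floxed libraries (-1.0 ± 0.134, limma adjusted p = 0.00196). Myl1 was higher, at 15.6, 12.5, 14.7 and 14.7 against 7.71, 2.52 and 6.89 (1.30 ± 0.385, limma adjusted p = 0.0386), near the floor in all of these libraries. With floxed replicate 3 left out, Myl1 reached the filter value of 10 in libraries labelled Prx1-cre alone, so its call carries that selection. Markers of mammary epithelium, another tissue of the depot, summed to 7543 to 17416 in libraries labelled Prx1-cre, against 3618 in floxed replicate 3 and 27243 to 37469 in the other floxed libraries; their part in the result was not tested.

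In adult wild-type mice the cold did not separate the groups in most members. Acta1 had 5311, 8.57, 277 and 2623 at 4 C, against 73.2, 77.5, 9503 and 4405 at 22 C. Myh4 had 11710, 1.07, 236 and 2172 at 4 C, against 0, 1.67, 19403 and 7366 at 22 C. Each group thus held libraries with strong and with almost no muscle signal, and the SE of the Myh4 log2 fold change of 1.26 was 3.86. limma called 0 of 28 tested members, where 4.47% of 12118 genes were called. At an unadjusted p of 0.05, 1 member passed, against 2886 of all tested genes. It was Tpm3, with 956, 846, 1117 and 1200 at 4 C, against 1476, 1387, 1988 and 1468 at 22 C, with no overlap (-0.62 ± 0.154, limma adjusted p = 0.0581). The median log2 fold change was 0.51 over the tested members and 0.02 over all tested genes.

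Among the summed members of adult wild-type mice, the share of Casq1 was lower in every library at 4 C than in any at 22 C, a pattern chosen after its values were seen. Casq1, the calcium-binding protein of the sarcoplasmic reticulum of fast fibres (chromosome 1, 172209894 to 172219895), had 88.9, 1.99, 7.33 and 72.0 at 4 C, against 8.77, 14.6, 1128 and 482 at 22 C. As a share of the summed members other than Tpm3 it made up 0.22, 0.27, 0.35 and 0.48% at 4 C, against 1.30, 2.17, 1.94 and 1.81% at 22 C. The absolute levels overlapped. In the libraries with the least muscle these shares rest on few counts and on other genes: Casq1 had 1.99 in 4 C replicate 2, where Des, Ldb3 and Eno3 made up 84.4% of the sum, and those 3 genes made up 76.1 and 76.2% in 22 C replicates 1 and 2. With the 3 genes also left out of the sum, a choice made after seeing the data, the Casq1 shares were 0.237, 1.76, 0.523 and 0.521% at 4 C, against 5.43, 9.10, 2.04 and 1.92% at 22 C. The groups still did not overlap, but 4 C replicate 2 came close to 22 C replicate 4. In 4 C replicate 1 and 22 C replicate 4, with Acta1 at 5311 and 4405, Casq1 stood at 88.9 and 482.

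The Casq1 shares of the other libraries kept at 4 C lay below most of those kept at 22 or 30 C. They were 1.24, 0.56, 0.88 and 0.43% in libraries labelled Prx1-cre and 0.65, 0.87, 0.58 and 0.69% in floxed libraries. In the P28 and P25 libraries, kept at 22 or 30 C, they ran between 1.05 and 3.43%. With Des, Ldb3 and Eno3 left out as well, the Bcl6 libraries at 4 C ran between 0.612 and 4.33% and the P28 and P25 libraries between 2.05 and 4.22%, and so overlapped. These tables differ in age, genotype and scaling as well as in temperature, so their parts cannot be told apart.

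With the log2 member sum added to the fit as a covariate, a choice made after seeing the data, limma called 4 of the 28 members in adult wild-type mice, where 9.22% of 12118 genes were called. Casq1 was lower at 4 C (-1.88 ± 0.364, adjusted p = 0.0236), as were Eno3 (-1.05 ± 0.215, adjusted p = 0.0280) and Tpm3 (-0.60 ± 0.137, adjusted p = 0.0369). Ldb3 was higher at 4 C (1.13 ± 0.182, adjusted p = 0.0156). The covariate holds each member within it, and 3 of these 4 genes were also well above 0 in libraries with little muscle. Eno3 had 475, 85.1, 159 and 210 at 4 C, against 175, 174, 1666 and 785 at 22 C, and Ldb3 had 339, 105, 174 and 263 at 4 C, against 44.8, 68.6, 229 and 134 at 22 C. Pgam2, a glycolytic enzyme of muscle, had 65.2, 1.18, 5.93 and 42.4 at 4 C, against 0, 1.87, 390 and 186 at 22 C, but was not called.

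**Figure D4:**
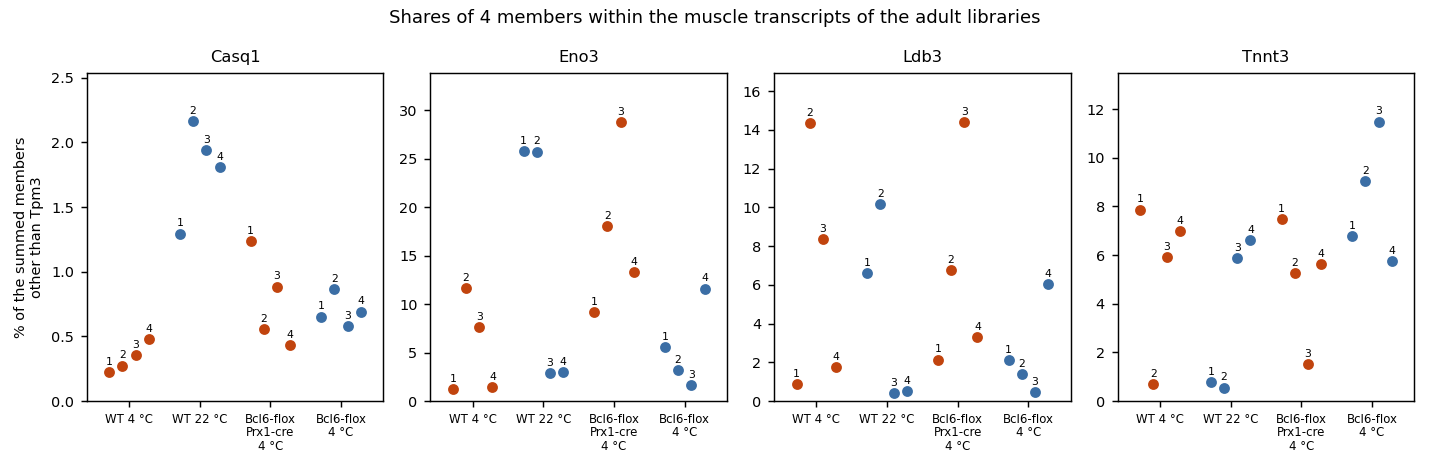
Casq1, Eno3, Ldb3 and Tnnt3 in percent of the summed members other than Tpm3 in the adult libraries, 1 point per library with its replicate number. Casq1 reaches at most 0.479% in the 4 wild-type libraries at 4 C and is at least 1.30% in the 4 at 22 C, while the shares of the other 3 genes overlap between those groups.

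Some genes outside the list followed it closely in most tables. By median r over the 5 tables, among 11359 genes tested in all of them, the most alike were the muscle glycogen phosphorylase Pygm and the reticulum cation channel Tmem38a, each at 0.99. Cap2 followed at 0.98, Mylk4 and the tropomyosin Tpm1 at 0.97, Ankrd23 and the M-band gene Myom2 at 0.96, Ank1, Tpm2 and Smyd1 at 0.95 and Rtn2 and Mlf1 at 0.94. In the TrkA table alone, r of these genes ran from 0.18 for Rtn2 and 0.33 for Ank1 to 0.98 for Mylk4. These r are over libraries that share scaling and are a description. A list of 25 other muscle genes, 22 with a row, summed to 364 to 4793 at 30 C against 357 to 502 at 22 C, and to 517 to 1977 in TrkA-flox Th-cre against 314 to 446 in wild-type libraries. In the adult Bcl6 table it summed to 1175 to 3019 in libraries labelled Prx1-cre against 1836 to 228633 without. The fast-fibre calcium pump Atp2a1 alone had 127705 in floxed replicate 3.

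Of this list, 10 genes were tested in each P28 table, 21 at P25, 20 in the adult Bcl6 table and 21 in adult wild-type mice. limma called 1 of them, the thin-filament gene Tmod4 in the TrkA table, at 40.6, 29.1, 32.2 and 20.5 in TrkA-flox Th-cre libraries against 5.20, 8.02, 6.81 and 1.57 in wild-type libraries (2.41 ± 0.435, adjusted p = 0.0223). Tmod4 reached the filter value of 10 in TrkA-flox Th-cre libraries alone, so its call carries that selection. Factors of muscle precursors and of fibre formation were low throughout: the 6 genes summed to at most 63.9 in every library but floxed replicate 3, where they summed to 635, of which Myf6 of mature fibres made up 563. Pax7, the marker of satellite cells, reached at most 5.74.

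Myl4, an embryonic and atrial light chain, was higher in libraries labelled Prx1-cre at P25, at 61.0 to 113 against 31.6 to 53.0 (0.79 ± 0.161, limma adjusted p = 0.0101). At 9 weeks it had 1551, 1305, 628 and 842 in libraries labelled Prx1-cre, against 263, 274, 295 and 204 without (1.98 ± 0.272, limma adjusted p = 0.0032). With the member sum in the fit its log2 fold changes were 0.79 and 2.17. The embryonic and perinatal myosins Myh3 and Myh8 reached at most 17.9 and 22.5 in any library.

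How far muscle could shift other genes was examined within each table. By dilution through the 36 members alone, the difference between the libraries with the most and the least muscle came to -0.03 on the log2 scale in the adult Bcl6 table and less in the others. Muscle genes outside the members were not counted, and those of the other list summed to 228633 in floxed replicate 3. The value is thus no upper bound on dilution by all muscle RNA. For direct supply, a ceiling was set from the smallest ratio of a gene's value to the member sum over the libraries of a table. That ratio was multiplied by the difference between the group means of the sum. The product assigns all of the gene's value in the library with that ratio to muscle and is not an estimate. Nor is it a strict upper bound, since the sum holds Tpm3, which other cells also make and which lowers the ratio. In the P28 temperature table the ceiling reached the whole difference for 90 of 547 called genes that were not members, or 16.5%. It did so for 7 of 313 (2.24%) in the TrkA table, 289 of 1953 (14.8%) in the adult Bcl6 table, 0 of 450 at P25 and 0 of 542 in adult wild-type mice. With Tpm3 left out of the sum, the TrkA count was 21. The counts turned on single libraries: without 22 C replicate 4 the P28 temperature count was 11, without Th-cre replicate 4 the TrkA count was 82, and without floxed replicate 3 the adult Bcl6 count was 667. The number of called genes changed as well. Without floxed replicate 3, limma called 3548 of 13622 tested genes, against 1953 of 13496 with it, so 667 and 289 are not out of the same number.

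For the heat-producing uncoupling protein Ucp1, with all libraries kept, the ceiling ran against the measured difference in all tables but the adult Bcl6 table. At 30 C it averaged 109, against 1758 at 22 C, and the ceiling was 55.9. In TrkA-flox Th-cre libraries it averaged 419, against 1545 in wild-type libraries, with a ceiling of 125. At P25 it averaged 375 in libraries labelled Prx1-cre, against 6405 without, with a ceiling of 3.69. With cold in adult wild-type mice it averaged 21153, against 289 at 22 C, and the ceiling was -14.2. In the adult Bcl6 table it averaged 17143 in libraries labelled Prx1-cre, against 66626 without, and the ceiling of -15192 came to 30.7% of the difference. With the largest muscle supply that this ratio allows taken off both group means, the log2 ratio of the means was -1.63, against -1.96 as measured. A ceiling takes its sign from the difference in the member sum, which turned on single libraries at P25 and in adult wild-type mice. The log2 ratio of mean shares was 0.20 at P25 but -0.72 without the Prx1-cre library F2. In adult wild-type mice it was -0.68 but 0.49 without 22 C replicate 3.

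Genes made by both muscle and thermogenic fat had wider ceilings in the adult Bcl6 table. The ceiling came to 51.5% of the difference for Cox7a1, a heart and muscle subunit of cytochrome oxidase. For Cidea, listed as a thermogenic gene and not as a shared one, the ceiling came to 37.4%. It exceeded the difference for Ucp3, at 108%, and the log2 ratio of the Ucp3 means was 0.05 with that supply taken off both means, against -0.53 as measured. Ckmt2, the mitochondrial creatine kinase of sarcomeric muscle, had 19.7, 6.23, 1.22 and 10.7 in libraries labelled Prx1-cre, against 17.6, 20.1, 1666 and 12 without. The muscle oxidase subunit Cox6a2 had 22.4, 9.43, 1.21 and 14.7, against 33.3, 50.6, 2010 and 11.2 without. Both were thus high in floxed replicate 3 alone.

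With the log2 member sum as a covariate, the log2 fold change of Ckmt2 in that table was 0.05, against -2.77 without the covariate, and that of Cox6a2 -0.30, against -3.08. At P25 they were -0.44 against -1.43 and -0.24 against -1.08. None of these passed the test in either fit. Thermogenic genes moved little: Ucp1 had -4.60 with the covariate against -4.06 without for 30 C, -2.17 against -1.96 for TrkA, -4.27 against -4.18 at P25, -2.29 against -2.12 in the adult Bcl6 table and 6.08 against 6.17 for cold in wild-type mice. Over 70 tests of genes of the thermogenic and shared lists in the 5 tables, limma called 34 without the covariate and 32 with it, 29 of them in both. With the covariate, calls fell from 7 to 4 for 30 C and from 3 to 1 for TrkA. They rose from 5 to 8 for cold in wild-type mice and stayed at 9 at P25 and 10 in the adult Bcl6 table. All 34 called without the covariate kept their sign, and the largest move among them was 0.54 on the log2 scale. Calls lost with the covariate were those of Cox8b, Ucp3 and Gk at 30 C and of Cox7a1 and Ucp1 in the TrkA table, the last with an adjusted p of 0.111 against 0.0284.

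**Figure D5:**
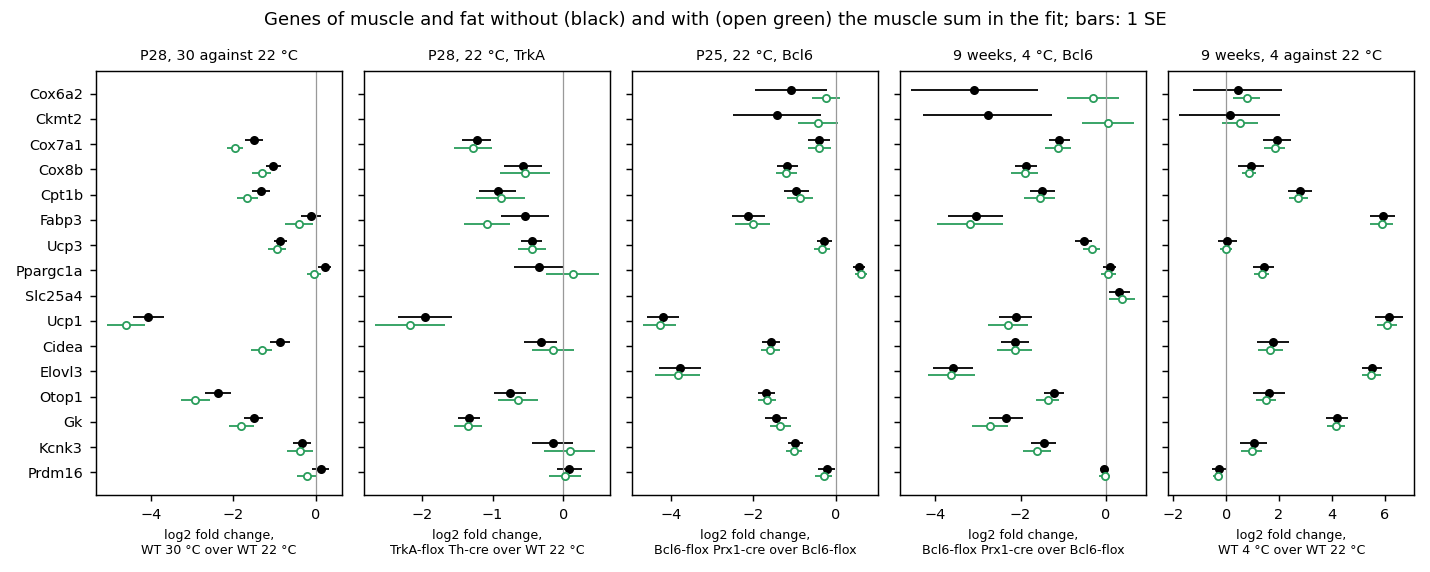
log2 fold changes of genes made by muscle and fat and of thermogenic genes, without (filled black) and with (open green) the log2 member sum in the limma fit, with bars of 1 SE; genes not tested in a table have no point. Cox6a2 and Ckmt2 move towards 0 in both Bcl6 panels, while the other genes stay close to their first value.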

How the data were processed

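Per the labels' protocols, frozen inguinal fat went into a stranded mRNA library kit. The deposited values, used here as a signal, are counts that the authors normalized, made with kallisto and DESeq2 on mm10, per the submitters' processing notes; tool versions were not given in the sources used here. Each of the 5 tables has its own scaling, and no test crosses tables. Depth was estimated as a library's total divided by its most common low value; it limits precision for members near the floor.

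limma 3.58.1 in R 4.3.3, with a mean-variance trend, was fitted to log2(value + 1) for all genes that reached 10 in a number of libraries equal to the size of the smaller group. Benjamini-Hochberg adjustment ran over all genes tested in a table, at a threshold of 0.05. Folds on this scale understate changes of low genes. On simulated data the fit recovered 85.7 to 93.5% of 4-fold and 52.6 to 73.1% of 2-fold changes, with 3 to 10 false calls. The members, gene lists and tests were chosen with earlier results of these data known. Genes named are the members, listed genes of each list discussed, and the 12 most alike genes. The level of the targeted gene in the TrkA table is not reported here. Columns of the P25 table carry letter codes whose meaning the labels do not give. Both P28 tables hold the 4 wild-type libraries at 22 C, with ratios between the tables that were not 1 factor per library: 80.1 to 80.2% of genes lay within 1% of a library's median ratio. Alternatives covered pseudocounts, filters, median-ratio scaling, quantile normalization, a replicate block, a covariate and each library left out. Python 3.11.15 with numpy 2.4.6, pandas 2.3.3 and matplotlib 3.10.9 was used.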

Additional observations from a re-analysis of the deposited data

Results flagged for a closer look

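Of 27 checks for a sample far from the rest of its group, 5 flagged one; chance flags about 1 group in 20. In the TrkA table, Th-cre replicate 1 had a log2 ratio of fast to slow members of 1.5, with the other 3 libraries between -1.04 and -0.84. In the same library Myh4 made up 92.7% of the 4 myosins, with the others at 81.3 to 82.0%. At P25, the Prx1-cre library F2 held 0.959% muscle members, with the next at 0.394%, and the floxed library M2 held 0.439%, with the next at 0.236%. At 9 weeks and 4 C, floxed replicate 3 held 2.41%, with the next at 0.145%.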

How the results depend on the processing

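Settings covered pseudocounts of 0.5 and 5, filters, median-ratio scaling, quantile normalization, the replicate block, the covariate, other bounds and libraries left out. None of the 4 members called in the TrkA table changed sign. Of the 19 members tested in the P28 temperature table, Ckm, Des, Eno3, Mybpc1, Ryr1 and Ttn stayed above 0 in every setting. The others did not: Acta1 ran between -0.637 and 3.36 and Myh4 between -0.767 and 3.84. The covariate and the sum without Tpm3 were chosen after seeing the data. Of the values for single genes, 2006 values kept their side of the threshold, 114 moved, 25 gained and 20 lost a call. In the P28 temperature table, members called were 1 with no filter and 0 to 18 with a library left out. The log2 ratio of mean shares, 1.85, was 2.80 without Tpm3 and 1.16 to 2.16 with a library left out. The fast to slow difference was 1.66 to 3.71, and genes within the ceiling were 11 to 109, or 149 with the second smallest ratio. In the TrkA table, members called were 2 with a filter of 50, 0 with the covariate, 7 with the replicate block and 1 to 3 with a library left out. The log2 ratio was 1.61 without Tpm3 and 0.36 to 1.04 with a library left out, the fast to slow difference 1.49 to 2.33, and genes within the ceiling 0 to 82, 58 with the second smallest ratio and 21 without Tpm3. The Ttn call was lost with no filter (adjusted p = 0.0574) and its adjusted p ran between 0.0397 and 0.128. At P25 no member was called with any library left out; the log2 ratio was -0.72 to 0.54, the fast to slow difference -2.59 to -1.37 and genes within the ceiling 0 to 1. In the adult Bcl6 table, members called were 0 to 2, the log2 ratio -4.63 to -1.21 (the last without floxed replicate 3), the fast to slow difference -5.28 to -2.45 and genes within the ceiling 83 to 667, or 721 with the second smallest ratio. In adult wild-type mice, members called were 4 with the covariate and 1, Tpm3, with the replicate block (adjusted p = 0.0209, against 0.0581 without it), and 0 with any library left out; the log2 ratio was -1.77 to 0.49, the fast to slow difference -0.52 to 3.21 and genes within the ceiling 0. Counts of genes within the ceiling are out of the called genes, whose number also changed with the library left out. The causes were not tested. Replicate numbers were not taken to pair the libraries, since in no table was every correlation of same-numbered libraries over 0.1. They ran between -0.66 and -0.02, -0.14 and 0.21, -0.35 and 0.16, and -0.26 and 0.77 in the P28 temperature, TrkA, adult Bcl6 and adult wild-type tables; in the last, numbers 2 to 4 lay between 0.50 and 0.77 and number 1 at -0.26. The P25 table had no fit with a block, since its columns carry no sample numbers. Depth limits the precision of Myl1 and of slow members other than Tpm3, which lie near the worth of single reads. Myl1 did not rise with the other fast members. It stood at 12.3 in adult floxed replicate 3 and at 14.7 in Prx1-cre replicate 3, where Actn3 stood at 42805 and 16.6. The reason was not tested.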

Other observations

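Muscle of other kinds gave a few calls. Acta2, the actin of smooth muscle, was higher at 30 C, at 527, 438, 514 and 452 normalized counts, against 377, 399, 309 and 324 at 22 C (log2 fold change 0.46 ± 0.102, limma adjusted p = 0.0416). The smooth muscle gene Synpo2 was higher in TrkA-flox Th-cre than in wild-type libraries (0.93 ± 0.171, limma adjusted p = 0.0231) and lower at 4 C than at 22 C in adult wild-type mice (-1.14 ± 0.245, limma adjusted p = 0.0436). In each of these 3 comparisons, 8 smooth muscle genes were tested and 7 not called, where 4.45, 2.66 and 4.47% of all tested genes were called. Of the 8, 8 had a positive log2 fold change at 30 C, 5 in the TrkA table and 6 in adult wild-type mice. Their medians were 0.38, 0.16 and 0.28, so most of the list went the other way from Synpo2 in adult wild-type mice. Chrnb1, a subunit of the acetylcholine receptor of the nerve-muscle junction, was lower in the adult libraries labelled Prx1-cre than in floxed libraries (-0.59 ± 0.154, limma adjusted p = 0.0368). It was 1 of 2 tested genes of its list, where 14.5% of all tested genes were called.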
